A study of Oryza sativa with 6 samples.

Results

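A block of neighbouring loci on rice chromosome 6, from LOC_Os06g37450 to LOC_Os06g39999, was compared between mature leaves of wild-type plants (WT) and of the mutant osatg5-1. LOC_Os numbers name gene models in their order along a chromosome, so loci with near numbers are near each other. The block was chosen by measured values: an earlier fit to these counts had called a large part of its loci between the 2 genotypes. Its members are the loci of this range with at least 10 counts in 3 or more libraries: 79 of the 252 loci listed there, and of 57839 loci in the whole table. Both genotypes were field-grown under natural long-day conditions, without further treatment, and mature leaves were frozen at tillering, when side shoots form; each genotype has 3 libraries. The labels give neither the cultivar, nor the way osatg5-1 was made, nor the number of lines, nor whether replicates were separate plants, so differences between libraries of a genotype may be technical.

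ATG5 works in autophagy, in which membrane vesicles enclose parts of the cell and bring them to the vacuole to be broken down. It is joined to ATG12, and the conjugate helps to attach ATG8 to the lipid of the growing vesicle. In leaves, autophagy is known for recycling chloroplast protein and nitrogen, above all in ageing tissue. Rice chromosomes also hold many rows of copied genes side by side, and reads from one copy can be assigned to the next. No member could be paired with a gene name, so members are called by their locus ID, no function is given to any, and copies among them were not identified.

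The libraries held 30927816 to 39351357 counts. Counts were scaled to the size of the library, as CPM, with edgeR's TMM factors. A locus is called where edgeR's quasi-likelihood test over 23074 loci gave an adjusted p under 0.05. Of the 79 members, 77 were tested and 2 were too rarely read. Because the block was picked for its changes in this very contrast, its calls and fold changes are a description and no test of the block. In bulk leaf RNA, fewer cells of a type and less RNA per cell cannot be told apart.

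Transcripts of 9 block loci were called higher in osatg5-1 and those of 19 lower, while 49 were not called. The 28 called loci are 36.4% of those tested. Over all tested loci 16.4% were called, 8.23% higher and 8.21% lower. On the rest of chromosome 6, 280 of 1699 loci (16.5%) were called, 136 higher (8%) and 144 lower (8.48%). In the equally wide range of numbers just below the block 9 of 76 tested loci were called, and in that just above it 19 of 95. Changes of 2-fold or more were called at 9 block loci, 2 higher and 7 lower, or 11.7%, against 5.12% over all loci (3.03% higher and 2.09% lower). LOC_Os06g38110 and LOC_Os06g38580 are among both the 19 and the 7. They met the threshold for membership through the WT libraries alone and so had to be lower in osatg5-1. Both count in every block total of lower or changed loci in this paragraph. The 6 libraries fell into 2 separate groups at 33 block loci, 42.9%, against 35.4% over all loci. The log2 fold change was below 0 at 52 of the 77 loci, with a median of -0.11, whereas over all tested loci 49.7% were below 0 and the median was 0.00162. Called loci of the block rose by a median of 1.79-fold or fell by a median of 1.80-fold, compared with 1.59-fold and 1.58-fold on the rest of the chromosome.

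**Figure D1:**
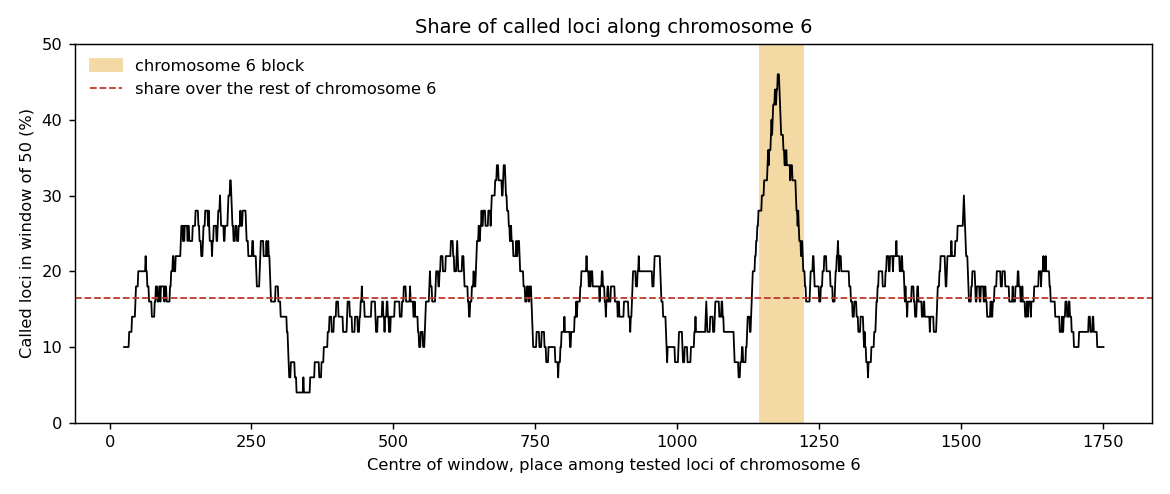
The share of called loci in each window of 50 consecutive tested loci is drawn against the window's place among the 1776 tested loci of chromosome 6; the band marks the block and the dashed line the 16.5% of the rest of the chromosome. The line reaches 46% inside the band and at most 34% in windows that hold no block locus.

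The tested block loci take places 1146 to 1222 among the tested loci of the chromosome. In the plot of the called share along chromosome 6, 3 overlapping windows of 50 loci share the highest value; the first of them runs from LOC_Os06g37670 to LOC_Os06g39624 and holds 6 higher and 17 lower loci. The edges of the block are given as locus numbers, for a block that was itself chosen by its values, and the lower edge falls at a called locus. The first member, LOC_Os06g37450, was called higher, and its neighbour just outside, LOC_Os06g37440, had a log2 difference of 0.14 ± 0.08 (SE) and was not called. At the other end, LOC_Os06g39970 inside and LOC_Os06g40010 outside stood at -0.27 ± 0.16 and -0.25 ± 0.38 and neither was called.

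The block was divided for description, after its values had been seen, into 4 stretches. From LOC_Os06g37450 to LOC_Os06g37690, 3 of 9 tested loci were higher and 0 lower. From LOC_Os06g38110 to LOC_Os06g38970, 11 of 30 were lower and 0 higher, and 24 of the 30 had a log2 fold change below 0. Both totals include LOC_Os06g38110 and LOC_Os06g38580, which had to be lower by the threshold for membership. From LOC_Os06g39040 to LOC_Os06g39590, 6 of 16 were higher and 5 lower. From LOC_Os06g39600 to LOC_Os06g39970, 3 of 22 were lower and 0 higher. Over all tested loci 16.4% were called, 8.23% higher and 8.21% lower, and the called share of this last stretch was not above that. Between LOC_Os06g37690 and LOC_Os06g38110 the table lists 37 loci, of which 33 had no count in any library and 0 were members.

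**Figure D2:**
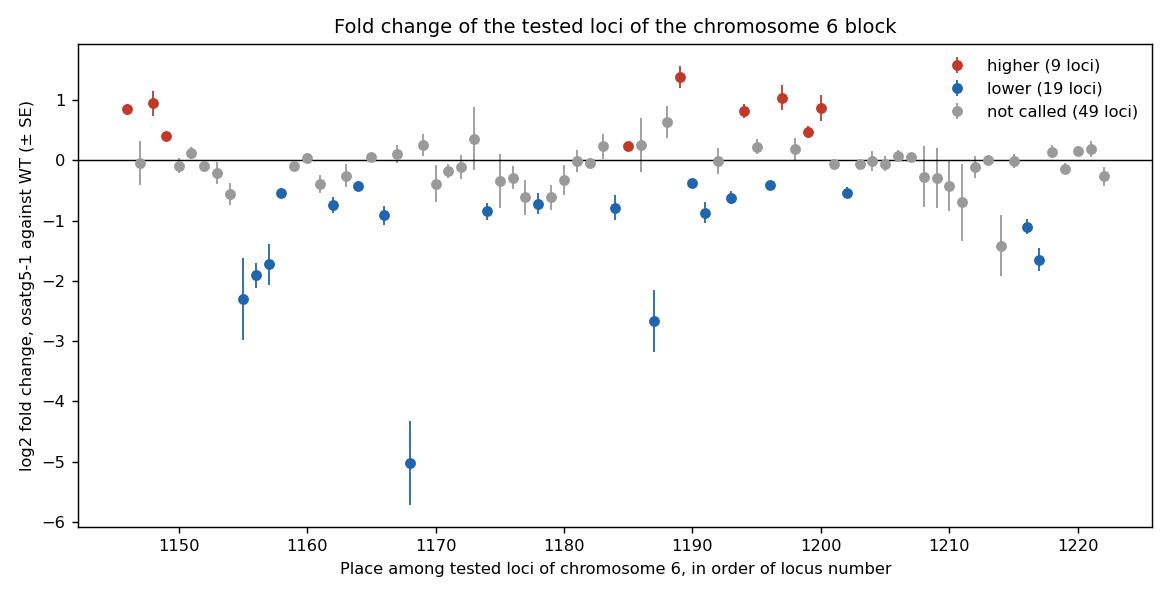
Log2 fold change of osatg5-1 against WT for the 77 tested block loci, with the standard error, in their order along chromosome 6; red loci were called higher, blue lower and grey not called. From place 1155 to 1184 lie 11 blue and 19 grey points and no red one, and from 1185 to 1200 both red and blue points occur.

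The longest row of neighbours that moved one way was lower in osatg5-1 and ran over 4 tested loci, LOC_Os06g38110, LOC_Os06g38120, LOC_Os06g38150 and LOC_Os06g38210. LOC_Os06g38120 was at 9.53, 6.72 and 7.10 CPM in WT and at 1.73, 1.80 and 2.64 CPM in osatg5-1. Every mutant library lay far below every WT library, a log2 fold change of -1.91 ± 0.21 (SE), or 3.76-fold lower. LOC_Os06g38150 went from 1.08, 0.992 and 1.16 CPM to 0.283, 0.328 and 0.352 CPM, or -1.73 ± 0.34 on the log2 scale. Per length, these 2 loci stood at 3.57 and 2.54 FPKM in WT (the authors' values, scaled to gene-model length and depth). Averaged over all 6 libraries they stood at 2.27 and 1.65 FPKM. Both lay between the lower quartile (1.39 FPKM) and the median (4.43 FPKM) of the tested block loci. LOC_Os06g38110 was the least read of the row, with 11, 13 and 15 counts in WT and 0, 4 and 5 counts in osatg5-1. It met the threshold for membership through the WT libraries alone and so had to be lower in osatg5-1. The row reaches 4 loci only with this locus. The pooled ratio of WT to osatg5-1 at LOC_Os06g38110 was 5.04, with an exact binomial 95% interval of 2.40 to 11.8. That interval covers counting error at most, and the call was lost without any 1 of the 6 libraries. At 0 counts, osatg5-1 replicate 1 is only known to lie below 0.0943 CPM, the value of 3 counts, if counts are independent.

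LOC_Os06g38210, at the end of this row, is the most abundant block locus and moved least of the 4. It was at 1074, 1073 and 1077 CPM in WT and at 712, 716 and 780 CPM in osatg5-1. The 3 WT libraries were nearly alike and all mutant libraries were lower, by -0.55 ± 0.06 on the log2 scale, or 1.46-fold. Per length it stood at 795 FPKM in WT and 549 in osatg5-1, ahead of all other members. The total level of the block depended on this 1 locus. Summed CPM over the 79 members was 3405, 3462 and 3448 in WT and 3108, 3233 and 3267 in osatg5-1, with the mutant libraries lower. Without LOC_Os06g38210 the sums were 2331, 2389 and 2371 CPM in WT and 2397, 2518 and 2488 CPM in osatg5-1, and the mutant libraries were higher. Both orders were the same with RLE and with library-size scaling.

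Loci listed between the 4 were read little. LOC_Os06g38140, which is no member, had 22 counts over the WT libraries and 2 over the mutant ones. LOC_Os06g38115 had 0 and 4 counts, and LOC_Os06g38160 had 25 and 29. LOC_Os06g38190, a member too rarely read to be tested, had 6, 6 and 2 counts in WT and 11, 10 and 12 in osatg5-1, but it met the threshold for membership through the mutant libraries alone and so had to be higher there. These counts are small and were not tested.

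**Figure D3:**
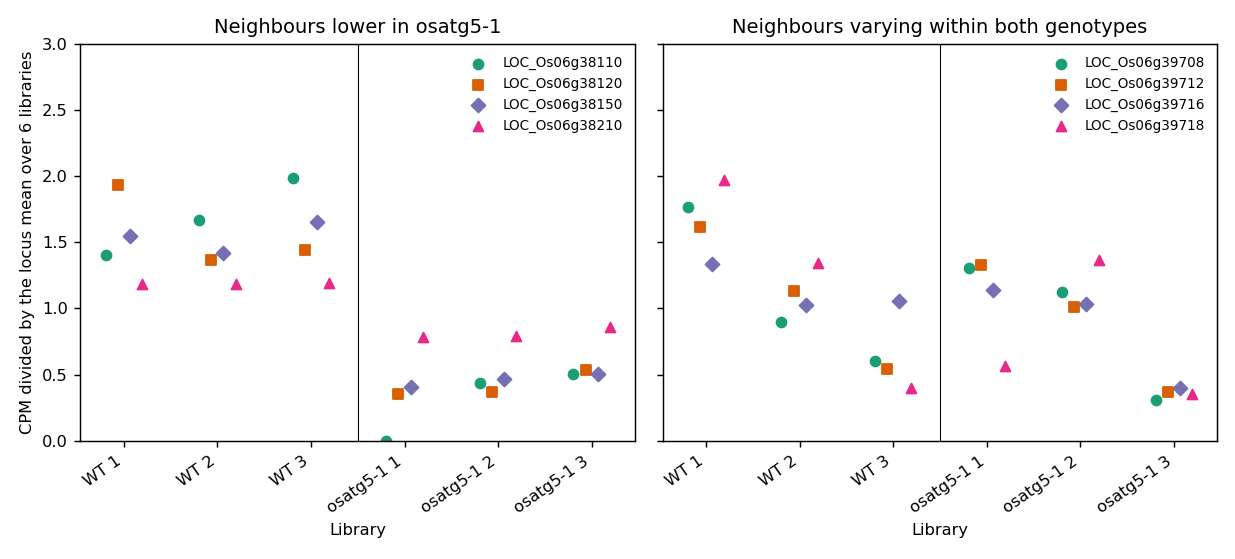
CPM in each library divided by the mean of the locus over the 6 libraries, for the 4 neighbours from LOC_Os06g38110 to LOC_Os06g38210 (left) and the 4 from LOC_Os06g39708 to LOC_Os06g39718 (right). On the left every WT point lies above every osatg5-1 point of the same locus; on the right the points differ as much within a genotype as between genotypes, and osatg5-1 replicate 3 is the lowest library at each of the 4 loci.

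Further along the lower stretch the largest fall of the block was at LOC_Os06g38580. Its implied length is 233 bases, and it had 35, 18 and 41 counts in WT and 0, 2 and 1 counts in osatg5-1. It met the threshold for membership through the WT libraries alone and so had to be lower in osatg5-1. The pooled ratio of WT to osatg5-1 was 36.4 (exact binomial 95% interval 12.1 to 180, counting error at most). The size of the fall is thus poorly known, while all mutant libraries were nearly empty. The next listed loci were read little and moved in both directions. LOC_Os06g38590 had 32 counts over the WT libraries and 6 over the mutant ones, and LOC_Os06g38594 had 0 and 9.

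The other lower loci of this stretch fell by less. LOC_Os06g38480 was at 19.4, 15.9 and 15.7 CPM in WT and 11.0, 7.33 and 8.75 CPM in osatg5-1, a log2 fold change of -0.91 ± 0.15. LOC_Os06g38764 was at 15.7, 18.7 and 12.8 CPM against 8.36, 8.26 and 9.60 CPM, or -0.85 ± 0.14. Neither overlapped between the genotypes, which was a condition for naming these 2 loci. LOC_Os06g38350, of only 221 bases, had the smallest spread within genotypes of all tested members, at 6.64, 6.63 and 6.51 CPM in WT and 4.02, 3.97 and 3.77 CPM in osatg5-1, or -0.75 ± 0.13. LOC_Os06g38970 (-0.79 ± 0.21) and LOC_Os06g38870 (-0.72 ± 0.18) fell as well. LOC_Os06g38970 lost its call without WT replicate 1 or 3 or osatg5-1 replicate 1 or 3, and LOC_Os06g38870 without replicate 1 or 2 of either genotype. LOC_Os06g38450 is 1 of the more abundant members and went from 107 ± 7.60 to 79.3 ± 6.20 CPM (SD, n = 3 each). Right beside it LOC_Os06g38470 was at 124, 116.5 and 130.4 CPM in WT and at 124, 128 and 132 CPM in osatg5-1, and was not called.

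The stretch from LOC_Os06g39040 to LOC_Os06g39590 had the highest called share and no common direction. LOC_Os06g39080 fell from 1.87, 0.928 and 2.77 CPM to 0.471, 0.137 and 0.276 CPM, or -2.66 ± 0.52 on the log2 scale, and its libraries varied widely within each genotype. The adjoining LOC_Os06g39070, not a member, had 13, 0 and 7 counts in WT and 0 in each mutant library. Both were therefore least read in osatg5-1, and WT replicate 2 was the lowest WT library of both.

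LOC_Os06g39120, 2 tested places further on, was the largest rise of the block. It went from 39.3, 50.6 and 41.2 CPM in WT to 82.6, 149.6 and 108 CPM in osatg5-1, a log2 fold change of 1.38 ± 0.19 or 2.60-fold. Per length it rose from 31.0 to 83.2 FPKM. LOC_Os06g39110, just before it, was at 8.96, 11.1 and 11.9 CPM in WT and 9.11, 23.2 and 17.1 CPM in osatg5-1, and was not called (0.63 ± 0.27); without osatg5-1 replicate 1 it was called higher. Among the mutant libraries replicate 2 was highest and replicate 1 lowest at both loci. LOC_Os06g39130, just after, is no member and had 0 counts in WT and 3, 9 and 3 in osatg5-1. The next locus went the other way: LOC_Os06g39140 was at 153, 157 and 166 CPM in WT and 116, 115 and 133 CPM in osatg5-1, or -0.38 ± 0.08.

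Both directions were found again further along. LOC_Os06g39230 fell from 5.94, 7.14 and 6.11 CPM to 3.02, 3.12 and 4.35 CPM, or -0.87 ± 0.18. LOC_Os06g39260 was lower by -0.62 ± 0.11 on the log2 scale, and LOC_Os06g39270, its direct neighbour, rose from 5.37, 5.73 and 6.51 CPM to 10.4, 10.3 and 10.3 CPM, or 0.81 ± 0.12. The 3 mutant libraries were nearly equal at that locus. LOC_Os06g39344 fell by 0.41 ± 0.07 on the log2 scale and the next tested locus, LOC_Os06g39370, rose from 12.1, 13.1 and 19.4 CPM to 22.9, 30.6 and 37.9 CPM, or 1.04 ± 0.20. LOC_Os06g39520 (0.46 ± 0.10) and LOC_Os06g39590 (0.87 ± 0.22) closed the stretch as 2 neighbours that were both higher, the latter no longer called without WT replicate 1 or osatg5-1 replicate 3. LOC_Os06g39040, at its start, had the smallest called rise, 1.17-fold (0.23 ± 0.07), and lost its call without any 1 library.

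**Figure D4:**
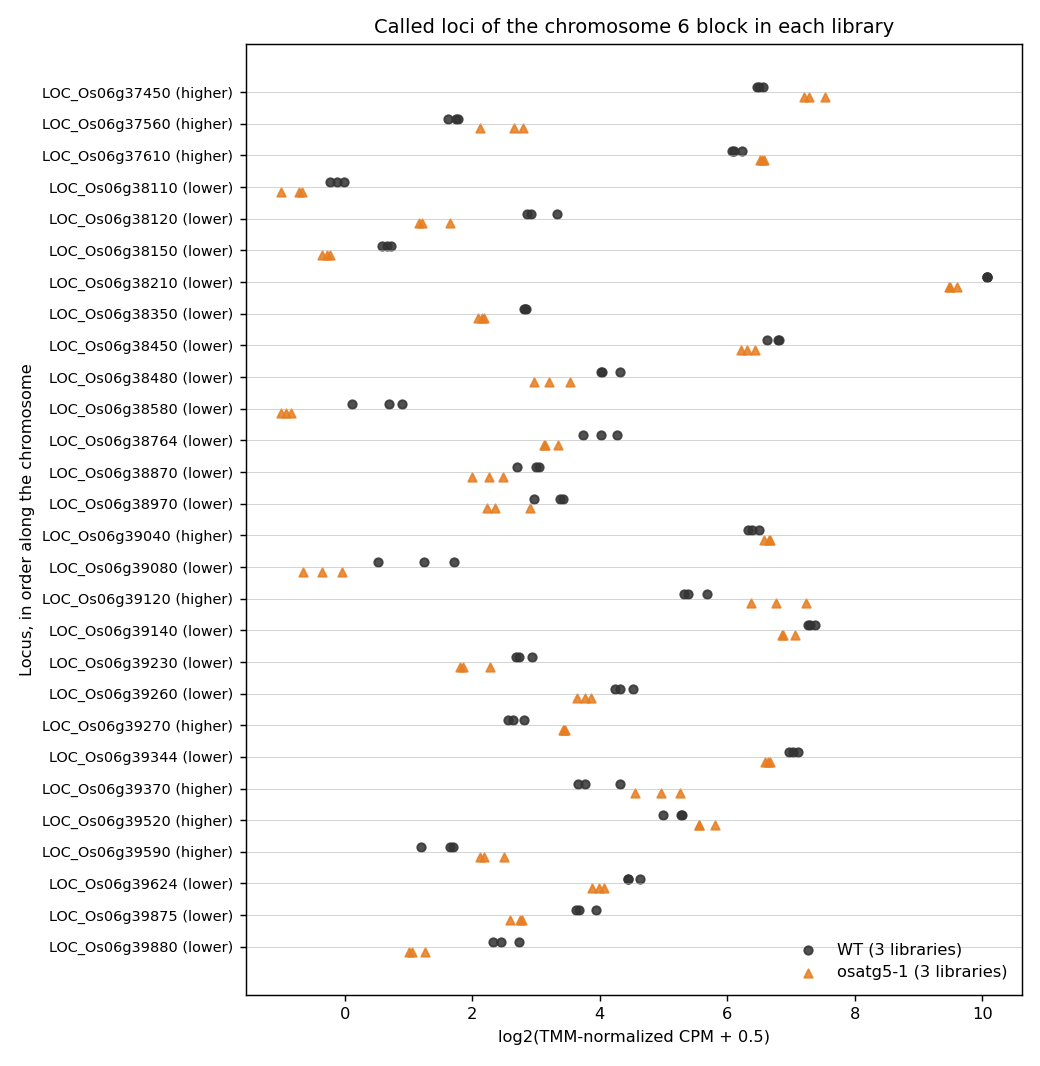
Log2(CPM + 0.5) of the 28 called block loci in each of the 3 WT libraries (circles) and 3 osatg5-1 libraries (triangles), with loci in their order along the chromosome. At each of the 28 loci the 2 genotypes do not overlap, as at nearly all called loci of the whole table. There 3793 loci were called and 8163 did not overlap, 4386 of them uncalled. LOC_Os06g38210 lies far to the right of the others.

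At the upper end of the block 2 adjoining loci fell together. LOC_Os06g39880 was at 4.95, 4.51 and 6.18 CPM in WT and 1.51, 1.89 and 1.58 CPM in osatg5-1, a log2 fold change of -1.65 ± 0.20. LOC_Os06g39875 went from 12.2, 11.9 and 14.8 CPM to 6.22, 6.37 and 5.55 CPM, or -1.10 ± 0.13. Their neighbour LOC_Os06g39870 was not called, at 15.2, 16.5 and 19.6 CPM in WT and 17.6, 17.8 and 15.3 CPM in osatg5-1. At this end the fall thus covered the 2 loci and not the one before them. Of the remaining loci of this stretch, LOC_Os06g39624 alone was called, at -0.54 ± 0.10.

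At the lower end 3 loci rose. LOC_Os06g37450 went from 87.9, 89.8 and 93.9 CPM to 155.5, 184 and 147 CPM, a log2 fold change of 0.84 ± 0.09 or 1.79-fold, the largest absolute gain in CPM of the block. LOC_Os06g37610 rose from 68.3, 74.9 and 66.7 CPM to 90.6, 92.4 and 94.6 CPM, or 0.40 ± 0.07. LOC_Os06g37560 rose from 2.86, 2.56 and 2.94 CPM to 6.41, 5.83 and 3.85 CPM, or 0.94 ± 0.21, with osatg5-1 replicate 3 nearest to WT; its call was lost without WT replicate 2 or osatg5-1 replicate 1 or 2. LOC_Os06g37510 between them was not called (-0.05 ± 0.37), and LOC_Os06g37620 after them stood at 8.73, 10.2 and 10.1 CPM in WT and 8.71, 9.90 and 8.67 CPM in osatg5-1.

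The 49 uncalled members include the second and the third most abundant. LOC_Os06g39912 was at 311, 346 and 357 CPM in WT and 395, 338 and 399 CPM in osatg5-1, and LOC_Os06g39690 at 305, 309 and 291 CPM against 306, 335 and 302 CPM. Their log2 differences were 0.16 ± 0.08 and 0.06 ± 0.07, and the genotypes overlapped at both. Over the 49, log2 fold changes ran from -1.42 to 0.63, 33 were below 0, and the genotypes did not overlap at 5 of them, or 10.2%, against 22.7% of uncalled loci over the whole table. The lowest value was that of LOC_Os06g39780, at 1.46, 0.576 and 1.42 CPM in WT and 0.189, 0.656 and 0.427 CPM in osatg5-1.

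Some neighbours that were not called differed together between libraries of a genotype; the 4 loci from LOC_Os06g39708 are given as an example. LOC_Os06g39708, chosen here after its values had been seen, was at 4.64, 2.37 and 1.59 CPM in WT and 3.43, 2.95 and 0.804 CPM in osatg5-1. LOC_Os06g39712, the next locus, was at 1.87, 1.31 and 0.628 CPM and at 1.54, 1.18 and 0.427 CPM. Summed over these and the 2 loci after them, LOC_Os06g39716 and LOC_Os06g39718, the level was 8.42, 5.06 and 3.14 CPM in WT and 6.03, 5.52 and 1.68 CPM in osatg5-1. In this sum the third library of each genotype was the lowest and the genotypes overlapped, and none of the 4 was called. LOC_Os06g39716 did not follow this order in WT, at 0.921, 0.704 and 0.727 CPM. Deviations from the genotype means correlated at 0.522 to 0.969 over the 6 pairs of the 4 loci. Such correlations were above 0.9 at 6 of 76 pairs of direct neighbours in the block and at 40 of 1697 on the rest of chromosome 6. LOC_Os06g39708 had the largest spread within genotypes of all tested members, an SD of 0.77 on the log2(CPM + 0.5) scale.

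A larger share of called loci by itself gives more neighbours that are called together, so the following counts describe the block and do not test it. Of its 76 pairs of direct neighbours, 5 were both lower, 2 both higher and 4 called in opposite directions. Among the pairs that were both lower is that of LOC_Os06g38110, which had to be lower, and LOC_Os06g38120. On the rest of chromosome 6, 21 of 1697 pairs were both lower, 10 both higher and 19 opposite. Pairs in 1 direction were 7 of the 11 doubly called pairs in the block and 31 of 50 elsewhere on the chromosome. The block had 5 rows of at least 2 neighbours called in 1 direction, and the longest row on the rest of the chromosome was also of 4 loci.

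The level, length and spread of the loci were not themselves the reason for choosing the block. Membership needs counts, however, and calls depend on level and spread, so these measures are not independent of the choice. They are given beside those of the rest of chromosome 6 without a test. Of the 252 listed loci, 50.4% had no count in any library, against 46.5% on the rest of the chromosome. The median level of tested loci was 4.43 FPKM, against 5.53 FPKM, and the median implied length 1966 bases, against 1946. The median spread within genotypes was 0.169 on the log2(CPM + 0.5) scale, against 0.143. Called block loci were found at all levels: 3 of 10 loci under 1 CPM, 11 of 33 from 1 to 10 CPM, 10 of 27 from 10 to 100 CPM and 4 of 7 at 100 CPM or more. Over all tested loci these classes held 9.35%, 15.2%, 17.9% and 27.4% called. The 3 called block loci under 1 CPM include LOC_Os06g38110 and LOC_Os06g38580, which had to be lower by the threshold for membership. Within the block, higher loci had a median of 42.7 CPM and lower loci of 7.20 CPM. Of the 8 tested loci shorter than 600 bases, 5 were called, all of them lower, and 2 of the 5, LOC_Os06g38110 and LOC_Os06g38580, met the threshold for membership through WT alone. Over all tested loci of that length 122 of 903 (13.5%) were called, 5.87% lower. The median length was 1628 bases for lower and 1966 for higher loci; the part of length in the direction of change was not tested.

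The 173 listed loci that are no members add little RNA. No count was seen at 127 of them in any library, and none of the others passed 18 counts in a library. Their summed level was 4.95, 4.42 and 3.86 CPM in WT and 3.02, 3.77 and 3.79 CPM in osatg5-1. Reads in 1 genotype alone were found at 11 loci for osatg5-1 and 8 for WT, with at most 15 and 20 counts over the libraries of that genotype. Just under the threshold for membership lay 5 loci that reached 10 counts in 2 libraries, such as LOC_Os06g38056, with 3, 13 and 6 counts in WT and 8, 10 and 7 in osatg5-1. Just over it lay 5 members with 10 counts in exactly 3 libraries, among them LOC_Os06g38110, LOC_Os06g38580 and LOC_Os06g39718. Of these, LOC_Os06g38110 and LOC_Os06g38580 passed through the WT libraries alone and were bound to be lower in osatg5-1, and LOC_Os06g38190 passed through the osatg5-1 libraries alone.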

How the data were processed

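RNA of mature leaves was sequenced in 3 WT and 3 osatg5-1 libraries, made with a stranded mRNA kit per the labels' protocols and grouped and numbered by their titles. The authors deposited raw counts per locus, and FPKM values for the same loci in 1 table per library, unpooled per the file headers. Per the submitters' processing notes, HISAT2 and IRGSP-1.0 were used. How reads were counted, with which strand setting and annotation, is not given in the sources used here, and loci that overlap, lie antisense or are near-identical may share reads. Lengths are those implied by counts and FPKM.

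The fit used edgeR 4.0.16 (R 4.3.3): filterByExpr, TMM, glmQLFTest with genotype as the only term, Benjamini-Hochberg adjustment over 23074 loci; SE is the log2 fold change over the square root of F. The fit was also run on simulated counts, drawn from the kind of model it assumes with dispersions fitted to these data. Such a run checks the code and cannot show how the fit does on the real libraries. Counts of 2 outnumbered counts of 1 by 2.58 to 2.83 times in each library, so counts may hold both mates of a pair. Intervals and floors take each count as independent and cover counting error at most. If mates were counted apart, the intervals are too narrow and the floors too low. The members, lists and alternatives were chosen with earlier results of these data known. Loci named with values were called members with a mean of at least 1 CPM and no overlap (10 highest, 10 lowest), rows of 3 or more neighbours, the 3 most abundant and the loci at both edges; their untested neighbours and others were added after values were seen, as were LOC_Os06g39780, LOC_Os06g38580 and those from LOC_Os06g39708 to LOC_Os06g39718. The name table, made from another assembly (ASM3414082v1), matched 0 members, so the targeted gene and leaf markers were not analysed here, and no coordinates were used. Alternatives used DESeq2 1.42.0 and limma 3.58.1 as well.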

Additional observations from a re-analysis of the deposited data

How the results depend on the processing

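The 28 called members kept their direction under all 16 alternatives run, which was largely given beforehand. The genotypes overlapped at none of the 28, so leaving out 1 library could hardly reverse a direction. The stricter threshold and the test against a 1.5-fold change use the fold changes of the main fit. Of them, 25 kept their call under each of the 8 other scalings, filters, tools and designs, 22 without each library in turn, and 6 in every alternative. Members called numbered 26 to 28 under the 8 (32.9% to 36.4% of those tested), beside 12% to 17.9% called on the rest of chromosome 6. The called members numbered 21 (27.3%) at an adjusted p under 0.01, and 23 to 27 (29.9% to 35.1%) with 1 library left out. Against a 1.5-fold change, a test that by construction passes only larger changes, 6 members (7.79%) were called, 1 higher and 5 lower. Among the 5 is LOC_Os06g38580, which had to be lower by the threshold for membership. On the rest of chromosome 6, 57 loci (3.35%) were called, and over all tested loci 720 of 23074. The block then had 1 row of neighbours, and 5 of the 22 named called loci held. At an adjusted p under 0.01 the rest of the chromosome had 143 called loci (8.42%) and the block 3 rows of neighbours. Over all tested loci 1859 of 23074 were then called. With 1 library left out, the rest of the chromosome had 188 to 260 called loci (11.1% to 15.3%). Rows of neighbours in the block then numbered 4 to 7, and 17 to 19 of the 22 named calls held. With library-size scaling the rest of chromosome 6 had 159 higher and 122 lower loci and the median log2 fold change over all loci moved from 0.00162 to 0.0381, while the block stayed at 9 higher and 19 lower; on log2(FPKM + 1) it had 9 higher and 18 lower, beside 166 and 113. The replicate block called 28 members, 27 of them shared; replicate numbers were not treated as pairs, since libraries of the same number shared deviations only weakly, at correlations of 0.054, -0.0192 and 0.13. LOC_Os06g38110, with 39 counts over WT and 9 over osatg5-1, was lost with DESeq2, without a filter, with the replicate block and without any 1 library. The more abundant LOC_Os06g39040 was lost without a filter and without any 1 library. In the main quasi-likelihood test their adjusted p were 0.045 and 0.0456, the nearest to the threshold of 0.05 among called members. Any further cause was not tested. The floor of 3 counts stands at 0.0754 to 0.0991 CPM, depending on the library.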
